A study of Mus musculus with 2 samples.

Results

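Crypt base stem-like cells of mouse intestinal organoids, which are cultures of epithelium alone, at day 5 of culture were taken as the 170 cells, of 1065 at day 5 and 1863 in all, with the highest score for 8 genes. The score is the mean of the authors' log2 values over Lgr5, Gkn3, Aqp4, Ttr, Prss23, Slc23a3, Sycn and Ifitm3, so these values chose the cells. Mice of the C57BL/6 strain, wild type and 10 weeks old, gave the organoids, and single cells were profiled in 1 library at day 3 and 1 at day 5, with unique molecular identifiers (UMIs) that count captured transcripts. Both cultures were grown in medium with EGF (100 ng/ml), Noggin (100 ng/ml) and R-spondin (500 ng/ml). Up to day 3 the medium also held 20% Wnt3a-conditioned medium and 10 µM Y-27632, an inhibitor of ROCK, and up to day 1 it held 3 µM CHIR99021, an inhibitor of GSK3B. None of these 3 additions was present from day 3 to day 5, so day, medium and library cannot be told apart.

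At the base of each intestinal crypt, stem cells that carry the receptor Lgr5 divide and supply the whole epithelium. They lie between Paneth cells, which give them Wnt and Notch ligands, and Wnt signalling through beta-catenin and TCF factors keeps them in place, with the transcription factor Ascl2 as one of its targets. R-spondins bind Lgr5 and its relatives and strengthen the Wnt signal, while Axin2, Rnf43 and Znrf3 dampen it. Cells that leave the base pass through rapid divisions and then become absorptive enterocytes or secretory Paneth, goblet and enteroendocrine cells, and injured or freshly seeded epithelium passes through a fetal-like state marked by Clu and Ly6a.

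The score is continuous, and the members are its upper range rather than a separate group of cells. The lowest member scored 0.914 and the highest non-member 0.909, the median was 1.18 in members and 0.217 in the other day 5 cells, and 20 members and 16 non-members lay within 0.05 of the limit. Because 530 of the 895 other day 5 cells scored high for 18 enterocyte genes (a mean log2 value of at least 2.79), the members were compared mainly with the 365 non-members of low enterocyte score, 4 members lying above that limit. Members held 3713226 UMIs, with a median of 19722 per cell (6937 to 50695), against a median of 16990 in the cells of low and 11220 in those of high enterocyte score. Over all day 5 cells the score was higher in cells with more UMIs (Spearman's rho 0.53, a description over cells of 1 library), and among members and low-score cells rho was 0.19. Mitochondrial transcripts made up 5.17% of the members' UMIs and 5.73% in the low-score cells, and 5 immune and stromal marker genes together reached 1.62 CPM in members. Each level below is a sum of UMIs over the cells of a class per 1000000 UMIs (CPM) with its exact Poisson 95% interval, which covers counting error only. With 1 library per day no test between samples is possible and no p-value is given, and the plot of both scores shows where the limits lie.

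**Figure D1:**
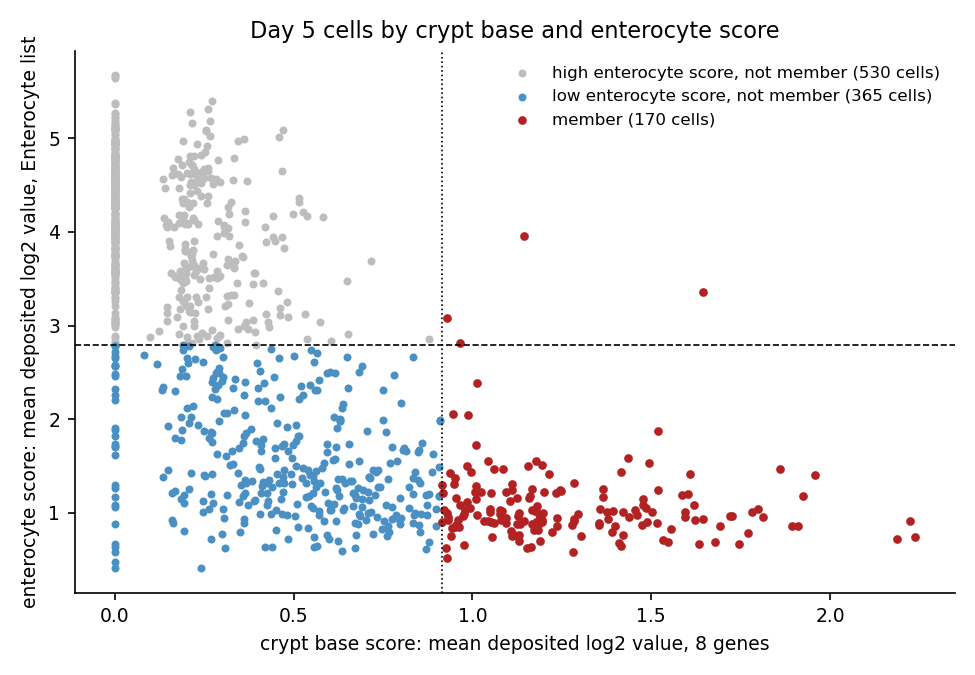
Each point is 1 day 5 cell, with its crypt base score on the x axis and its enterocyte score on the y axis, both as means of the deposited log2 values, the dotted line at the lowest member score (0.914) and the dashed line at the enterocyte limit (2.79). The 170 members form the right end of a continuous cloud of low enterocyte score, and 4 of them lie above the dashed line.

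Upstream sequences of 5 genes are shown because the results turn on them. Ifitm3 weighs most in the score and has a close relative, Ifitm2, on the same chromosome; Gkn3 is the score gene with the second highest ratio; Ascl2 and Axin2 are Wnt targets outside the score. Each run is the 250 bases before the RefSeq start, 5′ to 3′ on the gene's strand in GRCm38.p6, with motif matches in capitals. The table of RefSeq windows held 5 of the 8 score genes (11 windows) and 19 of the genes in the stem cell list (24 windows).
Ifitm3 (chr7:141010745-141010994, minus strand; capitals mark an E-box): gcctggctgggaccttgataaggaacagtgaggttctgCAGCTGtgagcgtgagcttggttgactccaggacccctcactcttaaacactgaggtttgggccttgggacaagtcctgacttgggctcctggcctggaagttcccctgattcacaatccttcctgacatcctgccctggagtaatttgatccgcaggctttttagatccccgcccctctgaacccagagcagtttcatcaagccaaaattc
Ifitm2 (chr7:140955962-140956211, minus strand; capitals mark an interferon-type repeat): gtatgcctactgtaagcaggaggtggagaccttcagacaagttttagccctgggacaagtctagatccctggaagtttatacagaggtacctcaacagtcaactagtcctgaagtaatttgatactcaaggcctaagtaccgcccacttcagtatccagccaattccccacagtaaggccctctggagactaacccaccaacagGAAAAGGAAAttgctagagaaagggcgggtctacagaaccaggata
Gkn3 (chr6:87388936-87389185, minus strand; no match): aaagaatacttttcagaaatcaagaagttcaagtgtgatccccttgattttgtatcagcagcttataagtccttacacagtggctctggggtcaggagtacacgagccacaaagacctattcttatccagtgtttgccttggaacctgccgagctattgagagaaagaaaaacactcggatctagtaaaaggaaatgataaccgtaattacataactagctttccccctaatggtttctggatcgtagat
Ascl2 (chr7:142969265-142969514, minus strand; capitals mark an E-box): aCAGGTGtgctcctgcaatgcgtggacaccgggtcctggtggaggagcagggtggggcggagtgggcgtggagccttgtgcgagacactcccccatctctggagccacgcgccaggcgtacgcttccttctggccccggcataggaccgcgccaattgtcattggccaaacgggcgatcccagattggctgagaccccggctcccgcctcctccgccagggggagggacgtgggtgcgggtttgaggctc
Axin2 (chr11:108920099-108920348, plus strand; no match): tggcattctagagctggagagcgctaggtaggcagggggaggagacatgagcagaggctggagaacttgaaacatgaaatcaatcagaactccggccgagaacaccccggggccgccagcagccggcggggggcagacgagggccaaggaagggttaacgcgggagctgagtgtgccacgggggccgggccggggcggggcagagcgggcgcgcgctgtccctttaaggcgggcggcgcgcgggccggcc
On both strands, the TCF letters CTTTGAA, or the same with its last bases AT, TA or TT, occurred in 14.8% of 32851 windows of all genes, in 0 of 11 windows of the score genes and in 3 of 24 windows of the stem cell list. E-box letters that bHLH factors such as Ascl2 can bind (CAGCTG or else CACCTG) occurred in 27.7% of all windows, in 8 of 11 of the score genes and in 7 of 24 of the stem cell list, but 7 of the 11 score gene windows are overlapping or alternative starts of Prss23. The repeat of interferon response elements (GAAA, any 2 bases and GAAA) stood in 2.98% of all windows, in 6 of 12 windows of the interferon response list, in that of Ifitm2 and not in that of Ifitm3. Over their alignment the Ifitm3 and Ifitm2 windows matched in 139 of 283 columns (49.1%). These are descriptions of letters in a window, and a missing match says nothing of a factor elsewhere.

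Ifitm3, an interferon-inducible membrane protein that blocks virus entry, carried the largest share of the members' score (22.3%), followed by Prss23, a secreted serine protease (20.6%). Aqp4, a water channel, gave 12.3%, Ttr, a carrier of thyroid hormone and retinol-binding protein, 12.1%, Gkn3, a gastrokine, 10.4%, Lgr5 9.45%, Sycn, a zymogen granule protein, 7.93% and Slc23a3, a member of the ascorbate transporter family, 4.93%. These genes are high in the members by construction. Ifitm3 stood at 226 CPM (211 to 241) in members and 42.4 (37.8 to 47.5) in low-score cells, and Lgr5 at 56.3 CPM (48.9 to 64.5) and 14.9 (12.2 to 18.0). In the cells of high enterocyte score, Lgr5 was at 0.619 CPM and Gkn3 at 1.39. Aqp4, Slc23a3, Sycn and Ifitm3 lay between 0.928 and 3.71 CPM there, and Ttr at 5.57. Prss23 was not confined to the crypt base classes. It stood at 50.4 CPM (45.1 to 56.2) in those cells against 146 in members, with a UMI in 37.5% of them. A member cell had UMIs of a median of 5 of the 8 genes (3 to 8), and 2 cells had all 8, against a median of 2 in low-score cells and 0 in high-score cells.

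To read each score gene where it had not chosen the cells, the 170 cells were chosen again by the other 7 genes, which kept between 144 and 157 of the members. Chosen so, Ifitm3 had a log2 ratio of members over low-score cells of 1.55 (1.38 to 1.72), Gkn3 of 1.51 (1.19 to 1.85), Lgr5 of 1.21 (0.88 to 1.54) and Aqp4 of 1.08 (0.79 to 1.36). Ttr had a ratio of 0.91, Sycn of 0.79, Slc23a3 of 0.67 (0.17 to 1.15) and Prss23 of 0.39 (0.21 to 0.56). Each of the 8 intervals lay above 0, and each ratio was smaller than when the gene helped to choose the cells (0.73 for Prss23 to 2.41 for Ifitm3). The 8 genes were taken as a set with earlier results of these data known, so these ratios describe the set and do not test it. With each UMI of a cell put at random into 1 of 2 equal parts, choosing cells on 1 part and reading the other gave 2.10 for Ifitm3, 1.89 for Sycn, 1.56 for Gkn3, 1.34 for Lgr5, 1.18 for Ttr, 0.74 for Aqp4, 0.73 for Slc23a3 and 0.34 for Prss23.

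**Figure D2:**
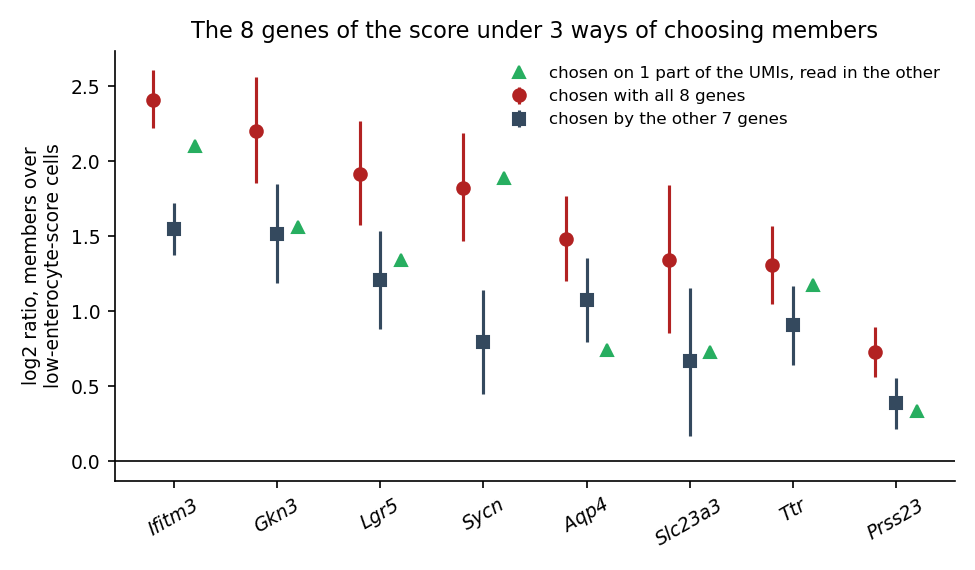
Log2 ratio of members over day 5 cells of low enterocyte score for each of the 8 score genes; circles are members chosen with all 8 genes, squares by the other 7 genes (bars for both are 95% intervals from counting error), triangles on 1 of 2 parts of the UMIs with levels from the other. The squares lie below the circles for all 8 genes and stay above 0, from 0.39 for Prss23 to 1.55 for Ifitm3.

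Lgr5 (chr10:115450311-115587780, minus strand, GRCm38) was not seen in every member. It had a UMI in 100 of 170 members (58.8%), with a median of 1 and at most 8 UMIs per cell, in 19.2% of low-score cells and in 0.755% of the cells of high enterocyte score, which should lack it. With each cell thinned at random to 6700 UMIs, so that depth is equal, the shares were 31.2% (24.3 to 38.7, exact binomial 95% interval), 9.04% (6.31 to 12.5) and 0 of 530 cells, for which the same interval reaches 0.694% and a floor of 3 cells allows 0.566%. Gkn3 was seen in 104 members, together with Lgr5 in 64, and 30 members had neither. Aqp4 was seen in 130 members and Ifitm3 in 148, of which 74 and 87 also had Lgr5, while Sycn was seen in 81, of which 45 had it. Zero UMIs of a gene at these levels does not show that a cell lacks the transcript.

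Outside the score, the list of crypt base stem cell genes was mostly higher in the members. The call of a gene as higher or lower needs a 1.5-fold difference, intervals that do not overlap and 10 UMIs or more over both classes. The files held 24 genes of the list, of which 22 had enough UMIs, 14 were higher and 1 lower, with a median log2 ratio of 0.78, beside a median of -0.02 over all 11062 genes tested. Over all genes 1.73% were higher and 4.07% lower. The same cells gave the score and these levels, so the count describes the cells and is no test of the score. With members chosen on 1 part of the UMIs and levels from the other, 9 of 19 were higher and 0 lower, with a median of 0.64. With every cell thinned to one depth 6 of 18 were higher, with a median of 0.80.

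Rgcc, a regulator of the cell cycle, had the highest ratio of the list among its called genes above 20 CPM. It stood at 56.0 CPM (48.7 to 64.2) in members and 15.5 (12.7 to 18.6) in low-score cells, a log2 ratio of 1.85. Igfbp4, which binds insulin-like growth factors, was at 57.9 CPM (50.4 to 66.2) and 20.6 (17.5 to 24.3), a ratio of 1.49. Ascl2 was scarce, at 11.8 CPM (8.61 to 15.9) from 44 UMIs and 4.74 (3.28 to 6.63) from 34 UMIs, a ratio of 1.32, and it was seen in 34 members. Also higher among scarce genes were Prelp, an extracellular matrix protein (1.97), Msi1, an RNA-binding protein (1.87), and Mex3a, another RNA-binding protein (1.17).

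More abundant genes of the list differed less. Smoc2, a secreted matrix protein, was at 212 CPM (198 to 228) and 132 (124 to 141), a log2 ratio of 0.68, and Slc12a2, the sodium-potassium-chloride cotransporter, at 171 CPM (158 to 185) and 99.9 (92.7 to 107), a ratio of 0.77. Cdca7 (0.78), Nrn1 (0.78), Soat1 (0.77), Cdk6 (0.73) and Rgmb (0.93) were higher too. Sox9 (0.51), Pdgfa (0.56), Lrig1 (0.34) and Prom1 (0.05) were not called. The gene called lower was Sectm1b, at 17.2 CPM (13.3 to 22.0) and 26.6 (23.0 to 30.7), a ratio of -0.62. Olfm4, a marker of crypt base stem cells in the intestine, was nearly absent, with 8 UMIs in members and 3 in low-score cells, and Tnfrsf19 had 0 in both. Rgcc and Igfbp4 kept their call in 15 of 15 alternative settings, Smoc2 and Axin2 in 14, and Rgmb, Mex3a and Nrn1 in 10.

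**Figure D3:**
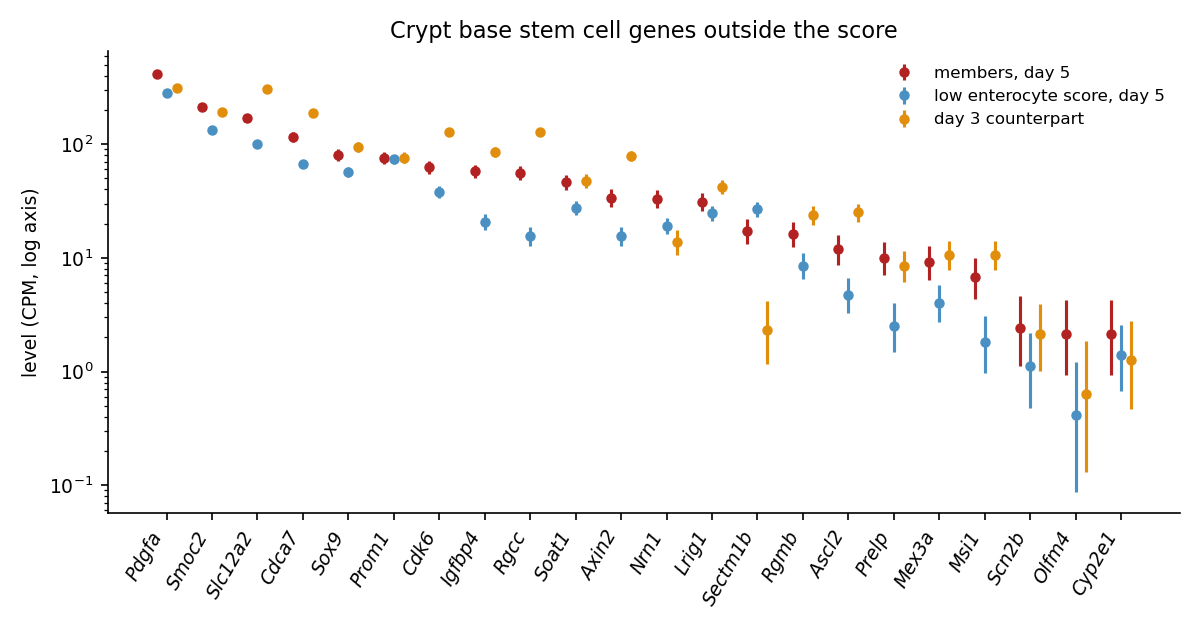
Levels in CPM on a log axis of the 22 measured stem cell genes outside the score, in members (red), day 5 cells of low enterocyte score (blue) and the day 3 counterpart (orange), with exact Poisson 95% intervals. Members lie above the blue points with intervals apart by 1.5-fold or more for 14 genes such as Rgcc (56.0 against 15.5) and below for Sectm1b (17.2 against 26.6).

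Genes of any function were named by rank of their ratio, among those with at least 20 CPM in the higher class and 10 UMIs in each class and without the score genes. Over low-score cells this ranking was led by Rgcc. After Igfbp4 came Noxa1, an activator of NADPH oxidase 1, at 26.9 CPM (21.9 to 32.8) and 9.76 (7.61 to 12.3), a log2 ratio of 1.46. Clca3b, of the chloride channel accessory family, was the most abundant of the 10, at 363 CPM (344 to 383) and 161 (152 to 171), a ratio of 1.17. Axin2 (1.13), Marcksl1, an actin-binding protein (1.10), Pla2g4a, a phospholipase that releases arachidonic acid (1.08), Grwd1, a ribosome assembly factor (1.03), and Tox3, an HMG-box protein (1.01), were also among the 10. In all, 191 genes were higher and 450 lower.

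Wnt targets were uneven. Of 16 found in the files, 12 were measured, 4 were higher and 0 lower, with a median of 0.53. Axin2, the feedback inhibitor, was at 33.9 CPM (28.3 to 40.4) and 15.5 (12.7 to 18.6), and Ephb3, a receptor that positions crypt cells, at 10.8 CPM (7.70 to 14.7) and 4.32 (2.94 to 6.14), a log2 ratio of 1.31. Myc, a driver of growth, had a ratio of 0.60 and Ascl2 is named above. Ccnd1 (0.10), Ccnd2 (0.00) and Rnf43 (0.03) were not called, and with every cell thinned 0 of 11 Wnt targets were called, at a median of 0.62. Of Wnt ligands, receptors and effectors 1 of 11 was higher, Wls, which carries Wnt proteins to the surface (0.64), a call held in 7 of 15 alternative settings, while the receptor gene Fzd5 had a ratio of -0.37 and Lgr4, the sister of Lgr5, of -0.30.

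In the Notch pathway, which keeps crypt base cells from a secretory fate, 1 of 7 measured receptors and targets was higher and 0 lower, with a median of 0.33. The higher gene was Lfng, a glycosyltransferase that tunes Notch receptors, at 13.2 CPM (9.76 to 17.4) and 4.05 (2.71 to 5.81), a log2 ratio of 1.70. Hes1, the main Notch target, was at 210 CPM (196 to 226) and 218 (207 to 229). The ligand Dll1 had a ratio of 0.05. Of 9 measured Notch ligands and secretory fate factors 2 were higher, Sox4 at 175 CPM (162 to 189) and 106 (98.3 to 114), and Foxa3 with a ratio of 0.86. Both kept their call without the cells of highest secretory score in either class (0.72 and 1.16). Neurog3, which starts the endocrine fate, had 0 UMIs in both classes. Of 7 measured BMP response genes Id1 was lower (-0.90) and no other passed.

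Growth factor genes of the EGF family were lower where they were called. Areg, which encodes amphiregulin, had 9 UMIs in members and 154 in low-score cells, at 2.42 CPM (1.11 to 4.60) and 21.5 (18.2 to 25.2), a log2 ratio of -3.07, with 83.8% of the UMIs of the low-score cells in 10 cells. Hbegf was at 49.0 CPM (42.2 to 56.7) and 102 (94.8 to 110), a ratio of -1.06, and the receptor inhibitor Errfi1 had a ratio of -0.65. With cells thinned to one depth, Hbegf was found in 22.9% of members, 38.1% of low-score and 62.1% of high-score cells. For Areg these shares were 1.18%, 4.66% and 11.3%. The receptor gene Egfr had a ratio of 0.68 and was not called. Of 10 measured Eph receptors and ephrins, Ephb3 was higher and the ligand Efnb2 lower (-1.05).

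Transcripts of dividing cells were not called different between members and the other low-score cells. None of 17 DNA replication genes and none of 17 G2 and mitosis genes was called, with medians of 0.35 and 0.00. Mki67, the proliferation marker, was at 71.4 CPM (63.0 to 80.5) and 79.5 (73.1 to 86.3), and Pcna, the replication clamp, at 86.2 CPM (77.0 to 96.2) and 72.1 (66.0 to 78.6). A Mki67 UMI was found in 82 members, of which 55 also had Lgr5. With each cell weighed alike, or with 250 members, 3 of 17 replication genes were higher, and with 100 members 2 were. Inhibitors of the cell cycle were lower or not called: Cdkn2b was at 8.08 CPM (5.45 to 11.5) and 33.9 (29.8 to 38.4), a log2 ratio of -2.05, Cdkn1a had a ratio of -1.17 and Btg2 of -1.07, and 5 others of the 8 measured were not called. These 3 were lower in 15 of 15 alternative settings. With cells thinned to one depth, Cdkn2b was found in 5.29% of members, 18.4% of low-score and 53.6% of high-score cells. It was thus most frequent in the cells of high enterocyte score. Enterocyte genes summed to 2147 CPM in members and 5319 in low-score cells, and their part in these ratios was not tested.

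Within the members, the 85 cells above and the 85 below the median of the cycling score differed in depth, with medians of 21607 and 15220 UMIs per cell. Mki67 was at 116 CPM in the upper and 10.8 in the lower set, and the split used this gene. Lgr5 was at 61.9 CPM (51.8 to 73.4) and 48.7 (38.4 to 60.9), intervals that overlap. Gkn3 ran the other way, at 50.7 CPM (41.6 to 61.2) and 76.5 (63.5 to 91.4), as did Ttr at 56.3 (46.7 to 67.3) and 99.3 (84.4 to 116). So did Slc23a3, at 15.9 CPM (11.0 to 22.3) and 31.0 (22.9 to 41.0), and Prss23, at 126 (112 to 142) and 172 (152 to 194). Intervals of Aqp4, Sycn and Ifitm3 overlapped. Goblet markers moved with this split, with Tff3 at 436 CPM in the upper and 1256 in the lower set. Agr2 was at 131 and 252 and Muc2 at 22.5 and 40.5, with 92.0% of the members' Muc2 UMIs in 10 cells. Paneth markers were uneven. Lyz1 was at 58.2 CPM (48.4 to 69.4) and 62.0 (50.3 to 75.5) and Mmp7 at 16.9 and 19.6. Defa24 was at 3462 and 3777, and Itln1 at 199 and 300. Ttr was also at 112 CPM in the 38 non-members of high secretory score, where Gkn3 was at 8.34, Slc23a3 at 11.7 and Prss23 at 66.7. The part of secretory transcripts in the split was not tested. Smoc2 was at 212 CPM in both sets.

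Genes for making ribosomes had a median log2 ratio of 0.49, and 3 of 12 were higher: Srm, which makes spermidine (0.87), Dkc1, which modifies ribosomal RNA (0.65), and Myc. Ncl, the nucleolar protein nucleolin, was at 804 CPM (775 to 833) and 547 (530 to 564) and fell short of the fold limit (0.56). Cytosolic ribosomal protein genes made up 45.2% of the members' UMIs and 42.2% of those of the low-score cells, and 0 of 82 measured were called.

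Genes of the fetal-like and regenerating state were lower in the members as sums over cells, and most of these sums came from few of the 365 low-score cells. Of 11 measured 9 were lower and 0 higher, with a median log2 ratio of -2.51, which was -1.65 with the 100 highest cells as members, -1.70 with every cell thinned and -1.81 with cells weighed alike. Clu was at 5.39 CPM (3.29 to 8.32) from 20 UMIs and 38.8 (34.4 to 43.6) from 278, a ratio of -2.81, and it was the lowest of all genes by the naming rule. But 10 low-score cells held 78.4% of that class's Clu UMIs, and a Clu UMI was found in 10.0% of members and 11.5% of low-score cells. Ly6a had 2 UMIs in members and 89 in low-score cells, and Anxa1 had 2 and 50. Msln, which encodes mesothelin, had 0 and 180, at least 31.1-fold lower against a floor of 3 UMIs in the members. The 10 low-score cells with the most UMIs of each gene held 88.8% of the class's Ly6a, 96.0% of its Anxa1 and 95% of its Msln. S100a6, a calcium-binding protein, was more widely found, in 55.9% of members and 69.3% of low-score cells, at 114 CPM (103 to 125) against 392 (378 to 407), and the keratin gene Krt7 was not called (-0.56). In 14 of 15 alternative settings 8 to 10 genes were lower, and with every cell thinned it was 5 of 11.

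Of the list of immediate early and heat shock genes 6 of 11 measured were lower, with a median of -0.70, and all 6 are immediate early genes. Fos was at 163 CPM (150 to 176) and 255 (243 to 267), Jun had a log2 ratio of -0.78 and Atf3 of -1.56, while Ier2 was not called (-0.09). The heat shock gene Hspa1a had 0 UMIs in members and 10 in low-score cells, and Hspa1b and Hspb1 were too scarce to measure. With the 100 highest cells as members, or with the score from thinned UMIs, 1 gene of the list was lower, with every cell thinned 2 of 10.

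Enterocyte genes were low in both classes and lower in the members, 9 of 17 with a median of -0.73, but the compared cells were chosen by these genes. Sis, which encodes sucrase-isomaltase, was at 87.3 CPM (78.0 to 97.3) and 410 (396 to 425), a log2 ratio of -2.23, while Apoa4 (-0.02), Fabp2 (-0.06) and Apoa1 (-0.12) did not differ beyond their intervals. Alpi, which encodes intestinal alkaline phosphatase, had a ratio of -1.97, Gsta1, a glutathione transferase, of -2.42, Adh4, an alcohol dehydrogenase, of -2.31, and Reg1, a secreted lectin, of -2.30. AA986860 (-2.21), the cytochrome gene Cyp2d26 (-2.16) and Mical2, an actin-oxidising enzyme (-1.97), complete the genes lowest by the naming rule.

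Of the 53 day 5 cells (5%) with the highest secretory score 15 were members. These 15 cells held most of the members' Paneth cell transcripts. The alpha-defensin gene Defa24 was at 3596 CPM in members and 2720 in low-score cells, but 91.0% of the members' UMIs came from 10 cells, and among the 155 other members it was at 140 CPM (128 to 154) beside 34083 in the 15. A Defa24 UMI was found in 81.2% of members and in 64.0% of the cells of high enterocyte score, which should not make it. Alpha-defensin genes are near-identical copies among which reads can be split. Defa20 was called higher, with 80.4% of the members' UMIs in 1 cell. As counted, 3 of 12 Paneth genes were higher and 1 lower (median 0.11); without the 15 members 11 of 11 were lower (-4.28), and without secretory-high cells in either class 3 of 9 were higher (0.74), so the list has no stable direction.

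Lower calls in the goblet and enteroendocrine lists rested on secretory-high cells, but not only on those 15. Enteroendocrine transcripts came mostly from non-members, at 1041 CPM summed over the list in low-score cells and 26.1 in members. For Chgb, 10 low-score cells held 95.6% of that class's UMIs. Of 13 goblet genes 5 were lower (median -0.81) and of 12 enteroendocrine genes 9 (-4.46), with Zg16, a goblet granule lectin, at 11.0 CPM (7.92 to 15.0) and 396 (381 to 411). Without secretory-high cells in either class 1 of 7 goblet genes was higher and 0 lower (0.29), and 1 of 6 enteroendocrine genes was higher and 0 lower (-0.17). The 15 secretory-high members also carried the score genes, by which all members were chosen, so these levels are only a description. Their intervals overlapped those of the other 155 for 7 of the 8, with Lgr5 at 87.3 CPM (60.1 to 123) against 52.8 (45.3 to 61.2), Gkn3 at 58.2 (36.5 to 88.1) against 62.1 (53.9 to 71.1) and Ifitm3 at 235 (189 to 290) against 225 (209 to 241), while Prss23 was lower at 82.0 (55.7 to 116) against 153 (140 to 167). No doublets were called, so how many of the 15 hold 2 cells was not tested. The stem cell list had 14 of 21 genes higher without them.

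**Figure D4:**
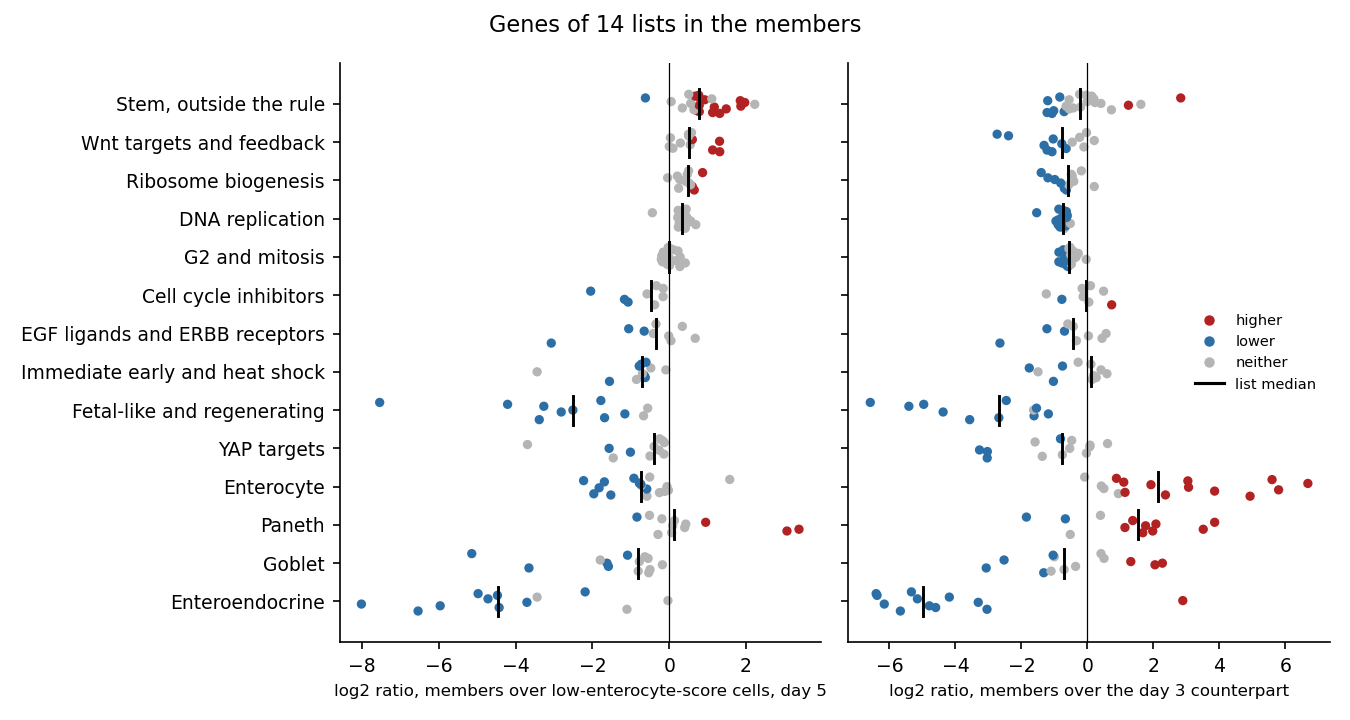
Log2 ratio of each measured gene of 14 lists, members over day 5 cells of low enterocyte score (left) and over the day 3 counterpart (right); red is called higher, blue lower, grey neither, and the bar is the list's median. On the left the stem list lies right of 0 (median 0.78) and the fetal-like list left of it (-2.51), and on the right the enterocyte list lies right of 0 (2.15).

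Against all 895 other day 5 cells, of which most were enterocytes, 13.7% of 11536 genes were higher and 13.4% lower (1580 and 1551), and with TMM scaling, which shifts the median of all genes by -0.12, the counts were 1164 and 1870. Of the stem cell list 18 of 22 were higher and 1 lower. Rgcc (2.75), Igfbp4 (2.31), Noxa1 (2.27) and Clca3b (2.05) were among the 5 genes of highest log2 ratio by the same rule of naming. At the other end were Reg1 (-5.01), Aldh1a1, which makes retinoic acid (-4.94), Ace, a brush border peptidase (-4.91), Zg16 (-4.83) and Creb3l3, a transcription factor of lipid handling (-4.80). Here 16 of 17 replication and 17 of 17 mitosis genes were higher, and 15 and 14 under TMM scaling.

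In bins of 170 cells along the ranking of all day 5 cells, too wide to show a step at rank 170, the stem list fell throughout. Its summed level was 1466 CPM in the members, 1058 in the next 170 cells and 730, 489, 455 and 393 in the 4 bins after those. Mitosis genes were level over the first bins, at 1247 and 1220 CPM, then 944, 479, 235 and 196. The fetal-like list ran up before it ran down, from 208 CPM in the members to 381, 691 and 653, then 384 and 285. Median UMIs per cell went from 19722 in the first bin to 10812 in the last, and enterocyte transcripts from 2147 to 36165 CPM. Among cells of low enterocyte score alone, cut into 3 equal sets by score, the stem list stood at 1456, 1052 and 740 CPM, the mitosis list at 1273, 1228 and 1251, the DNA replication list at 704, 622 and 477, and the fetal-like list at 211, 485 and 855. The first set of 177 cells held 166 members and the others held 0, so its values nearly repeat those of the members.

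**Figure D5:**
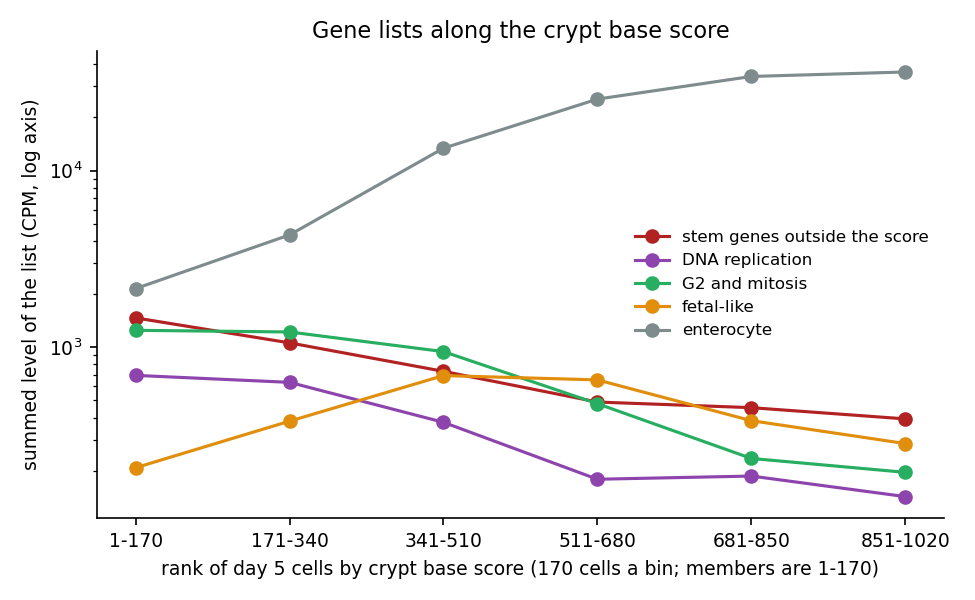
Summed level in CPM (log axis) of 5 gene lists in 6 bins of 170 day 5 cells ranked by crypt base score, members being ranks 1 to 170. Stem genes outside the score decline from 1466 to 393 CPM, mitosis genes are level over the first 2 bins and enterocyte genes climb from 2147 to 36165.

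The most alike cells of the other library are the 127 day 3 cells, the same share of 798, with the highest score by the same 8 genes. Their median score was 0.849 with a lowest of 0.649, and 48 day 3 cells (6.02%) reached the lowest member score. They held a median of 32932 UMIs per cell and 4.69% mitochondrial transcripts. Of 10760 genes 5.81% were higher in the members and 16.5% lower (625 and 1775), and with TMM scaling, which shifts the median of all genes by 0.24 from -0.25, the counts were 1016 and 765. Calls below hold under both scalings unless said otherwise, and thinning every cell to one depth left 290 higher and 777 lower.

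Of the score genes, Lgr5 was at 56.3 CPM (48.9 to 64.5) in members and 60.8 (53.9 to 68.2) in the day 3 cells, intervals that overlap, and it had a UMI in 31.2% and 31.5% of thinned cells. Prss23 was at 146 CPM (134 to 159) and 19.1 (15.4 to 23.5), a log2 ratio of 2.92, Sycn had a ratio of 2.57, Slc23a3 of 1.66 and Ttr of 1.22. Ifitm3 was at 226 CPM (211 to 241) and 292 (277 to 308) and was not called. Gkn3 was lower (-0.59), a call that TMM scaling lost. Both cell sets were chosen by these genes, so their levels are given as a description.

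Of the 22 measured stem cell genes outside the score 2 were higher and 6 lower, with a median of -0.22, near the -0.25 of all genes. Under TMM scaling 3 were higher and 5 lower, with a median of 0.02, so the list as a whole was not shifted. Axin2 was at 33.9 CPM (28.3 to 40.4) and 79.2 (71.4 to 87.7), a log2 ratio of -1.22. Rgcc (-1.20), Ascl2 (-1.07), Cdk6 (-1.02) and Slc12a2 (-0.83) were lower and Cdca7 (-0.70) was lower only without TMM scaling. Higher were Sectm1b (2.83) and Nrn1 (1.25). Smoc2 was at 212 CPM (198 to 228) and 193 (181 to 206). Each called gene of this list differed in the same direction between the other day 5 and the other day 3 cells. Axin2 was at 8.21 and 26.7 CPM there, Cdk6 at 26.0 and 117 and Sectm1b at 49.4 and 2.41. These shifts were thus not particular to the members, although most of those day 5 cells were of high enterocyte score. Of 13 measured Wnt targets 8 were lower and 0 higher, among them Cd44 (-1.31) and Rnf43 (-1.03), with a median of -0.77; 6 were lower under TMM scaling. Hes1 was higher (0.75), and Neurog3 had 0 UMIs in members and 52 in the day 3 cells.

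Mature absorptive transcripts were more frequent in the day 5 members. Of 16 measured enterocyte genes 12 were higher and 0 lower, with a median log2 ratio of 2.15. Sis was at 87.3 CPM (78.0 to 97.3) and 1.70 (0.73 to 3.35), a ratio of 5.60, and Apoa4 had a ratio of 5.80. Of the members' Sis UMIs 49.7% came from 10 cells. With cells thinned to one depth, a Sis UMI was found in 26.5% of members and 2.36% of the day 3 cells. In the day 5 library the cells of high enterocyte score held Sis at 2758 CPM, against 13.8 in the other day 3 cells, and the part of free RNA in the members' Sis level was not tested. By the naming rule Adh1, an alcohol dehydrogenase (4.31), Cideb, a lipid droplet protein (3.83), Selenop, a secreted selenium carrier (3.67), Sult1b1, a sulfotransferase (3.37), and Aoc1, which breaks down histamine (3.31), had the highest ratios.

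Lower in the members were 10 of 11 fetal-like genes, with a median of -2.68, and by the naming rule Clu stood last, at 5.39 CPM (3.29 to 8.32) and 114 (105 to 124), a log2 ratio of -4.37. Ankrd37, a gene induced by low oxygen (-3.40), Ccn1, a YAP target (-3.03), Id3, a BMP target (-2.94), and Slc2a1, a glucose transporter (-2.75), came before it. Of 13 measured YAP targets 4 were lower, and 3 under TMM scaling. DNA replication genes were lower in 15 of 17 cases with totals and in 5 of 17 under TMM scaling, and ribosome-making genes in 6 and 3 of 12, with Srm at 47.4 CPM (40.7 to 54.9) and 125 (115 to 136).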

How the data were processed

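Single-cell 3-prime RNA libraries were made on a 10x Genomics instrument from organoids at day 3 and day 5, 1 library each, per the labels' protocols. UMI counts were made by the authors with Cell Ranger 1.3.0 on mm10, per the submitters' processing notes, and no source used here gives the filters on cells. The second deposited table holds log2 values. They equal the log2 of 1 plus the UMIs scaled to the mean total of all cells. The cells carry running numbers, so barcodes shared by the libraries could not be counted. No doublet caller was run and no cell was removed.

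Symbols were matched for 15681 of 15745 genes. UMIs were summed per class, and log2 ratios used 0.5 UMI added to each sum. Analyses ran in Python 3.11.15 with numpy 2.4.6, pandas 2.3.3 and scipy 1.17.1, with TMM factors from edgeR 4.0.16, and the script was tested on simulated data. The members and gene lists were chosen with earlier results of these data known. Genes named beyond the lists are the 10 highest and 10 lowest by ratio over low-score cells and the 5 highest and 5 lowest in the other comparisons. They needed at least 20 CPM in the higher class and 10 UMIs in each. Left out were score genes, mitochondrial, ribosomal protein and predicted genes, genes with over 25% of the higher class's UMIs in 1 cell, and genes whose mean log2 value ran the other way. A few genes that the rule or the lists hold are not reported here. The day 5 library held 17349076 UMIs and the day 3 library 28764033.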

Additional observations from a re-analysis of the deposited data

How the results depend on the processing

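Counts of genes called higher and lower in the members moved by over 1.5 times in these settings. A 2-fold limit gave 712 higher and 964 lower against all other day 5 cells, 81 and 260 against low-score cells, and 643 lower than the day 3 counterpart. Choosing members on 1 of 2 equal parts of the UMIs and reading the other gave 969 higher than all other day 5 cells, and 89 higher and 240 lower than low-score cells. With cells weighed alike, 289 genes were higher than in low-score cells, and with the score taken from thinned UMIs 266 were lower. TMM factors gave 1016 higher and 765 lower than the day 3 counterpart. Thinning every cell to one depth, chosen after seeing the data, gave 267 lower than low-score cells, and 290 higher and 777 lower than the day 3 counterpart. Of 1227 values of single genes in alternative settings 1082 stayed within the interval of the reported value, 145 moved outside it and 0 of the called ones changed direction. A score with each gene divided by its SD kept 158 of the 170 members, and one from thinned UMIs 128. No paired analysis was possible because there is 1 library per day. Leaving out a replicate was not possible for the same reason, and differences between cultures were not measured. Low depth limits scarce genes such as Ascl2 (44 UMIs in members) and Olfm4 (8 UMIs).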

Other observations

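Fluid and ion transport genes split within the members. Over low-score cells Kcne3, a subunit of potassium channels, was higher at 28.5 CPM (23.4 to 34.5) against 14.8 (12.1 to 17.9), as were Slc12a2 (log2 ratio 0.77) and the potassium channel gene Kcnn4 (0.61), while the chloride channel gene Cftr stood at 40.1 CPM (33.9 to 47.1) and 38.6 (34.2 to 43.5). Among those lower were the anion exchangers Slc26a3 (-1.35) and Slc26a6 (-1.54). In all, 3 of 12 measured genes were higher and 3 lower.

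No gene of the interferon response list was called in the members, but the list was scarce. Of 13 genes found in the files 6 were measured, and 0 were higher and 0 lower by the same rule, with a median log2 ratio of -0.57. All 13 together reached 60.1 CPM in members and 62.9 in low-score cells, so the counts left little room for a call. Ifitm2, the neighbour of Ifitm3, was higher at 435 CPM (415 to 457) and 285 (273 to 298), a ratio of 0.61, while Ifitm1 had 1 UMI and Ifitm10 0 in the members. Of MHC class II genes H2-DMa alone was measured, with 24 and 33 UMIs, and Cd74 had 2 and 4.

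Among 19 measured intestinal transcription factors Foxa2 was higher, at 11.6 CPM (8.38 to 15.6) and 5.58 (3.99 to 7.60). This call held in 9 of 15 alternative settings; it was lost without the 15 secretory-high members and held without secretory-high cells in either class, at a log2 ratio of 1.69. Creb3l3 (-1.95), Maf (-1.20) and Hnf4g (-0.63) were among those lower, and Cdx2 (-0.18), Cdx1 (0.07) and Hnf4a (-0.13) were not called.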
